A study of Arabidopsis thaliana with 6 samples.

Results

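The genes described here are loci of the Arabidopsis CAP superfamily, small secreted proteins related to the defence marker PR1, which is itself not among them. The members were a list of 10 loci, each taken where the array has a probe set that names that locus alone. A probe set is the group of short probes that together report 1 transcript. For 9 of the 10 loci such a probe set was found, out of 13286 genes named on the array, and AT5G57625 is not analysed here. The members were chosen by a list drawn up with the difference of AT4G25780 between ka120 and WT already known, so the ka120 and WT values of the members are given as a description and carry no test. The gene names in the tables used here do not state the family, so membership rests on the list itself.

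Transcripts were measured in ka120 mutant plants and in wild type plants (WT, accession Col-0), with 3 biological replicates and 1 array per replicate in each group. KA120 (AT3G08960) encodes a nuclear transport receptor of the importin-beta family, and which allele the mutant carries is not stated in the sample records. All plants were untreated and grew on soil at 22 degrees C with 12 h of light and 12 h of dark. The design text gives whole rosettes at 3 weeks of age, whereas the sample records give mature leaves and 4 weeks of growth.

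CAP proteins share a compact fold held together by disulfide bonds and enter the secretory pathway through a signal peptide. PR1, the best known plant member, accumulates in the apoplast after salicylic acid signalling is switched on and is widely used to report that response. Plant CAP proteins of this type have been found to bind sterols, and short peptides released from the C-terminal end of some of them (CAPE peptides) act as signals. Most loci of the family in Arabidopsis are known by locus number only, and many of them have no assigned function.

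The deposited values were log2 levels, with array medians between 4.63 and 4.79. Across probe sets, arrays of the same genotype correlated at r between 0.993 and 0.997 and arrays of different genotypes at r between 0.961 and 0.965, which describes the arrays only, since genes are not independent replicates. The probe set of KA120 itself was dim, at 3.65 to 4.17 on the ka120 arrays and 4.34 to 4.55 on the WT arrays. It is a weak check of the genotype, because nothing in the records places its probes relative to the mutation. Over the whole array 35.9% of the 22746 probe sets tested passed a limma adjusted p of 0.05, with 19.4% higher and 16.5% lower in ka120. The number of arrays, 3 per genotype, limits the precision of every value below.

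Only 2 of the 9 CAP genes stood clearly above the dimmest signals of the array, AT4G25780 in WT and AT5G66590 in both genotypes, and both were lower in ka120. The other 7 stayed close to the dim end of the array on all 6 arrays. Counted by the limma threshold, 0 of the 9 were higher and 2 were lower (2 passed at an unadjusted p of 0.05), beside 35.9% of all probe sets in either direction and 16.5% lower. Counted by overlap, the 3 ka120 arrays lay below the 3 WT arrays for 2 of the 9 and overlapped with them for 7, beside 22.8% of all probe sets with ka120 below, 23.8% with ka120 above and 46.6% in either direction. These shares are given for scale only, since the members were listed with this comparison known.

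**Figure D1:**
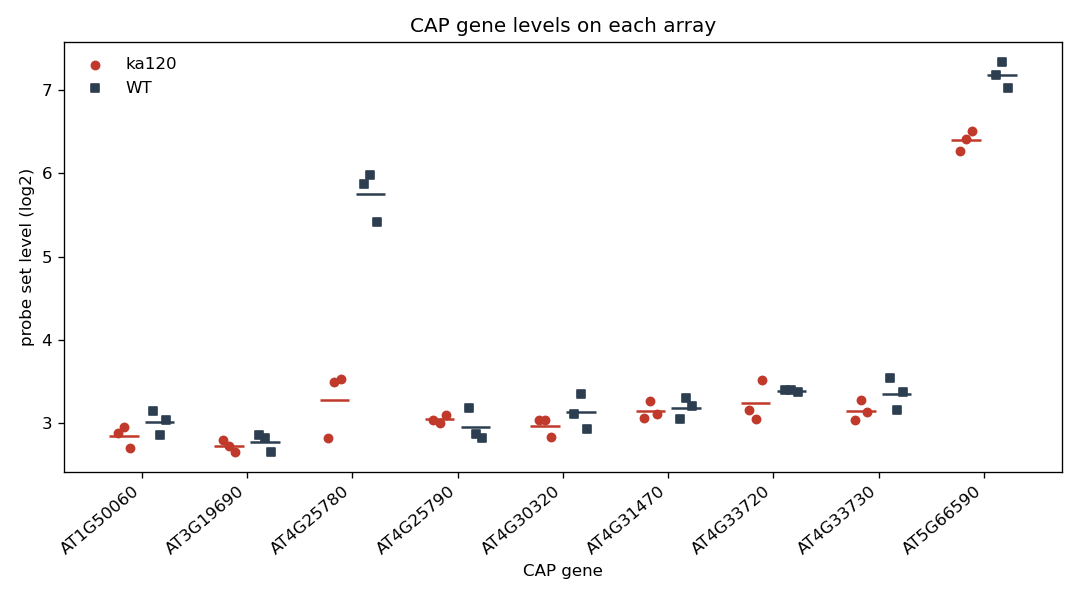
Level of each CAP gene (vertical axis, log2) on the 3 ka120 arrays (red circles, left) and the 3 WT arrays (dark squares, right), with a line at each group mean. AT4G25780 was at 2.82 to 3.53 in ka120 and 5.41 to 5.98 in WT, AT5G66590 was lower in ka120 without overlap, and the other 7 genes stayed between 2.66 and 3.54.

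AT4G25780, a CAP gene with no assigned function known here, had log2 levels of 2.82, 3.50 and 3.53 in ka120, against 5.87, 5.98 and 5.41 in WT. Every ka120 array lay below every WT array, and the gap between the highest ka120 value and the lowest WT value was 1.89 on the log2 scale. The means were 3.28 ± 0.40 in ka120 and 5.75 ± 0.30 in WT (SD, n = 3 arrays each), and their difference was -2.47 on the log2 scale (SE 0.19). As measured, 16 of the 22746 probe sets had a more negative difference; the ka120 level was in the range of the dim members, so neither this rank nor the difference is exact. The standard error was at percentile 99.2 of all probe sets, so this gene varied more between replicates than nearly all others. In ka120 the first replicate was the lowest of its group, and in WT the third replicate was the lowest.

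Among all probe sets the mean level of AT4G25780 was at percentile 26.1 in ka120 and at percentile 63.6 in WT. No detection calls came with the values, so the ka120 level was not shown to exceed background, and the difference is therefore not given as a fold. In whole leaf tissue fewer cells that express the gene and less RNA per cell cannot be told apart.

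AT5G66590, a further CAP locus, had log2 levels of 6.27, 6.41 and 6.51 in ka120, against 7.18, 7.33 and 7.01 in WT. Here too the groups did not overlap, with a gap of 0.50 between them on the log2 scale. The means were 6.39 ± 0.12 in ka120 and 7.17 ± 0.16 in WT (SD, n = 3 arrays each), and their difference was -0.78 on the log2 scale (SE 0.11). A more negative difference was seen in 1060 probe sets, or 4.66% of those tested. Its levels were at percentile 70.9 in ka120 and 81.6 in WT, which made it the member whose signal stood well inside the bright part of the array in both genotypes.

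The remaining 7 genes lay between 2.66 and 3.54 on the log2 scale over all 6 arrays, all of them below the median of every array. AT4G33730, the precursor of the peptide AtCAPE1 that has been linked to salt stress responses in Arabidopsis, had 3.04, 3.28 and 3.14 in ka120 and 3.54, 3.16 and 3.37 in WT (log2 levels). The groups overlapped, and the log2 difference of -0.21 (SE 0.12) was the most negative of the 7. AT4G33720, its neighbour on the chromosome, had 3.16, 3.05 and 3.53 in ka120 and 3.40, 3.40 and 3.37 in WT, with a log2 difference of -0.15 (SE 0.12). The 3 WT arrays were nearly equal there, and 1 ka120 array lay above them and the other 2 below.

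AT4G30320 had 3.05, 3.04 and 2.83 in ka120 and 3.11, 3.36 and 2.93 in WT, with a log2 difference of -0.16 (SE 0.12). AT1G50060 had 2.89, 2.96 and 2.71 in ka120 and 3.15, 2.86 and 3.04 in WT, also with a log2 difference of -0.16 (SE 0.11). For both genes the groups overlapped, and a single array decided the lower end of the ka120 values. AT4G31470 had 3.06, 3.26 and 3.11 in ka120 and 3.05, 3.31 and 3.21 in WT, with a log2 difference of -0.04 (SE 0.10). AT3G19690, the dimmest of the 9 at percentiles 5.95 in ka120 and 6.41 in WT, had 2.80, 2.74 and 2.66 in ka120 and 2.86, 2.82 and 2.66 in WT, a log2 difference of -0.05 (SE 0.09). In both of these genes the values of the genotypes ran through each other.

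AT4G25790 was the only member with a positive difference, of 0.09 on the log2 scale (SE 0.11). It had 3.04, 3.01 and 3.10 in ka120 and 3.18, 2.87 and 2.83 in WT, so that the ka120 arrays all fell within the WT range. Of the 7 dim genes 6 had a negative difference, and so had 5734 of the 9098 probe sets in the dimmest 40% of the array. The range over the 6 arrays had a median of 0.44 in the 7 genes, somewhat above the 0.35 of the dimmest 40% (log2). In that part of the array 10.2% of probe sets passed the threshold, 4.63% lower and 5.62% higher in ka120. In the other 60%, 24.5% of probe sets were lower; AT5G66590 lay there in both genotypes, and AT4G25780 was counted there only through its WT level. For these 7 genes a difference was not detectable with 3 arrays per genotype, which does not show that ka120 and WT had equal levels.

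AT4G25780 and AT4G25790 are direct neighbours in the TAIR10.1 gene order, and their values differed: -2.47 (SE 0.19) for AT4G25780 and 0.09 (SE 0.11) for AT4G25790 (log2 differences). On the other side of AT4G25780, AT4G25770 was at 4.79, 4.88 and 4.60 in ka120 and 5.22, 5.22 and 5.14 in WT, a log2 difference of -0.43 (limma adjusted p = 0.00513). AT4G25800, beyond AT4G25790, gave 0.25 and did not pass (limma adjusted p = 0.0997). The values of these 4 neighbouring genes thus differed in size, but the positive ones, of AT4G25790 and AT4G25800, did not pass the threshold. AT4G25790 turned negative (-0.03) after median centring. It lay at 2.83 to 3.18 already in WT, so a fall of the size seen in AT4G25780 could not show there.

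AT4G33710, AT4G33720 and AT4G33730 form a run of 3 neighbouring CAP loci, of which AT4G33710 is not on the member list. Their log2 differences were -0.11, -0.15 and -0.21, each with overlapping groups. AT1G50060 lies beside another CAP locus, AT1G50050, and the pair gave -0.16 and 0.15. Counting only neighbours outside the family, 8 of 14 were measured, of which 3 were lower in ka120, beside 16.5% of all probe sets, and 0 higher, beside 19.4% (3 passed at an unadjusted p of 0.05 as lower and 1, AT4G25800, as higher). The other 5 did not pass the limma threshold. The lower ones were AT4G25770, AT4G30310 beside AT4G30320 with a log2 difference of -0.76 (limma adjusted p = 0.000163), and AT3G19680 beside AT3G19690 with -0.45 (limma adjusted p = 0.0267).

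**Figure D2:**
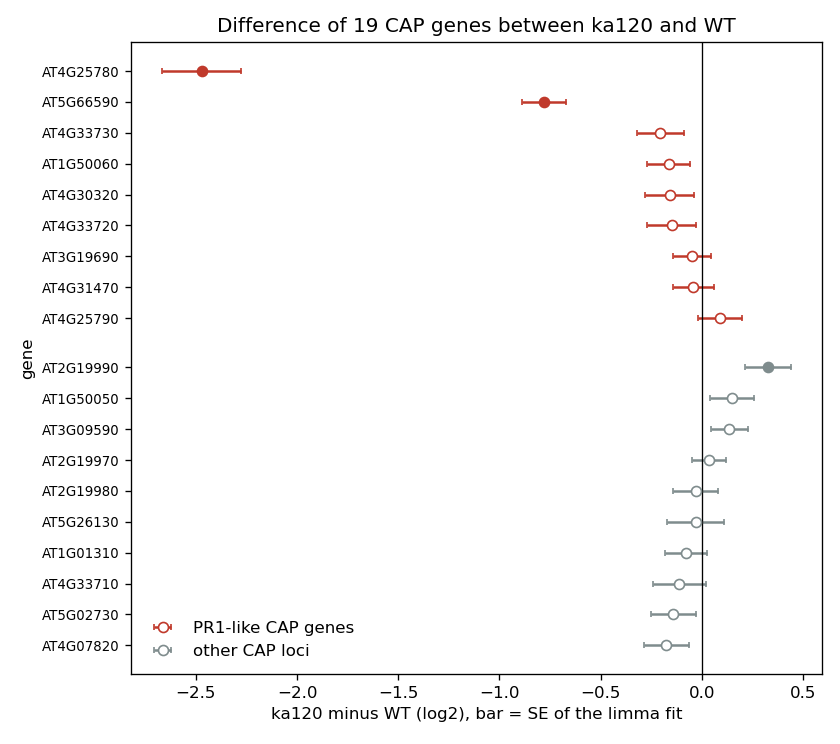
Difference of 19 CAP genes (horizontal axis, ka120 minus WT, log2, with the SE of the limma fit), for the 9 PR1-like members (red) above the 10 other CAP loci (grey); filled points passed the limma threshold. AT4G25780 at -2.47 and AT5G66590 at -0.78 lie apart from the other 17, which lie between -0.21 and 0.33.

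The family holds further loci, and for 10 of 11 of them, on a list kept apart from the members, the annotation names a probe set of their own. All 10 were dim, between 2.71 and 3.62 on the log2 scale over the 6 arrays, and all lay in the dimmest 40% of the array. Of these 10 loci 1 was higher in ka120 and 0 were lower (1 passed at an unadjusted p of 0.05), beside 10.2% of probe sets in that part of the array and 35.9% overall. The locus was AT2G19990, named PR-1-LIKE in the gene table, with 3.43, 3.18 and 3.45 in ka120 and 2.86, 3.18 and 3.06 in WT. Its groups only just separated, by 0.33 between the means on the log2 scale (SE 0.11, limma adjusted p = 0.0443), and the call was lost in 7 of the 13 alternative settings that measured it (limma adjusted p between 3.13e-06 and 0.162 over the 13).

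Without WT replicate 1 and after median centring the call that passed was instead AT4G07820, as lower (-0.29 and -0.30, limma adjusted p = 0.0316 and 0.0464, between 0.0316 and 0.739 over its alternatives). The other 9 loci did not pass with the deposited values. AT1G50050 and AT3G09590 gave 0.15 and 0.14, AT2G19970 gave 0.03, and AT2G19980 and AT5G26130 gave -0.03 each (log2 differences). AT1G01310, AT4G33710, AT5G02730 and AT4G07820 gave -0.08, -0.11, -0.14 and -0.18. The median difference was -0.03 in these 10 loci and -0.16 in the 9 members, against -0.02 over all probe sets (log2). In the 7 dim members it was -0.15, against -0.04 in the dimmest 40% of the array. The value for the 9 members counts AT4G25780, whose difference was known when the list was drawn up. Over members and other loci together, 16 of 19 CAP genes differed by less than 0.3 on the log2 scale. Small differences are common on this array. The median absolute difference was 0.19 over all probe sets and 0.10 in the dimmest 40%, where the 7 dim members and the 10 other loci lie.

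**Figure D3:**
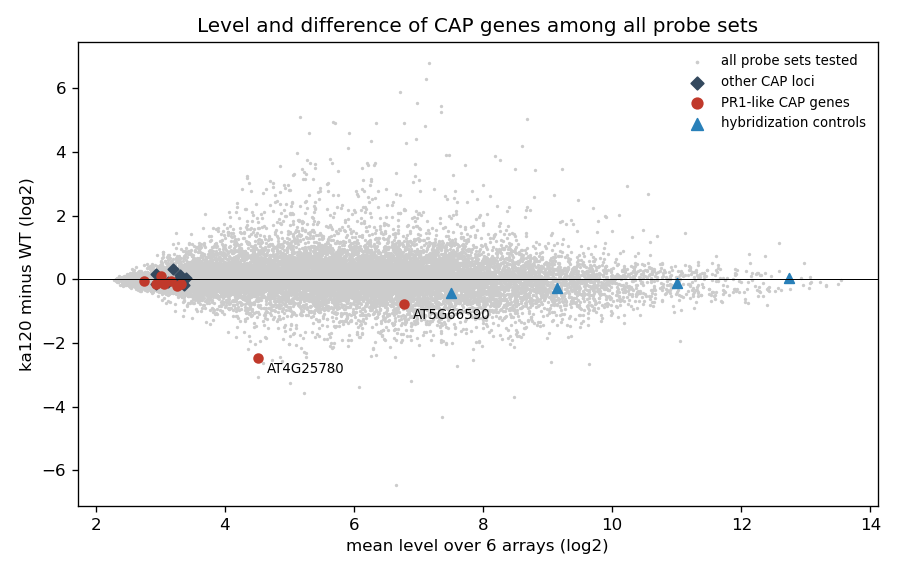
Mean level over 6 arrays (horizontal axis, log2) and difference (vertical axis, ka120 minus WT, log2) of all 22746 probe sets tested (grey), the 9 PR1-like CAP genes (red), the 10 other CAP loci (dark diamonds) and the means of 4 hybridization controls (blue triangles). The CAP genes sit at the dim end except AT4G25780 and AT5G66590, and the control BioB lies at -0.44.

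Control transcripts that are added in known amounts before hybridization differed between the genotypes in a way that went with their level. The dimmest of them, BioB, had log2 levels of 7.37, 7.31 and 7.17 in ka120 and 7.66, 7.75 and 7.76 in WT, which differ by -0.44, and the brightest, Cre, differed by 0.02. Of the 4 controls BioB was the closest to AT5G66590 in level. After each array was centred on its BioB controls, the log2 difference was -0.34 for AT5G66590 (SE 0.14) and -2.03 for AT4G25780 (SE 0.16), both lower in ka120, in a fit where all probe sets share the noise of these controls. The part of an array-wide offset in the smaller of these 2 differences was not tested further.

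The signs of the 7 dim members, all close to 0, moved with the offset that each scaling adds to every gene. With each array centred on its median, 9 of 9 members had a negative difference, from -2.59 for AT4G25780 to -0.03 for AT4G25790, and AT4G33730 joined the genes past the threshold as lower (-0.33). With each array centred on its hybridization controls 7 of 9 members had a positive difference, and the positive ones lay between 0.02 for AT4G33730 and 0.32 for AT4G25790. These 2 scalings moved the median difference of all probe sets to -0.15 and 0.21, against -0.02 as deposited, so the shift of the dim members followed that of the whole array. AT4G31470 also turned positive (0.02) without WT replicate 2. All 7 dim members took both signs over the 13 alternative settings that measured them. By contrast, over all 14 settings the values of AT4G25780 lay between -2.64 and -2.03 and those of AT5G66590 between -0.90 and -0.34. These ranges describe the same 6 arrays on which the members were listed, and AT4G25780 passed the filter on dim probe sets only through its WT level.

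**Figure D4:**
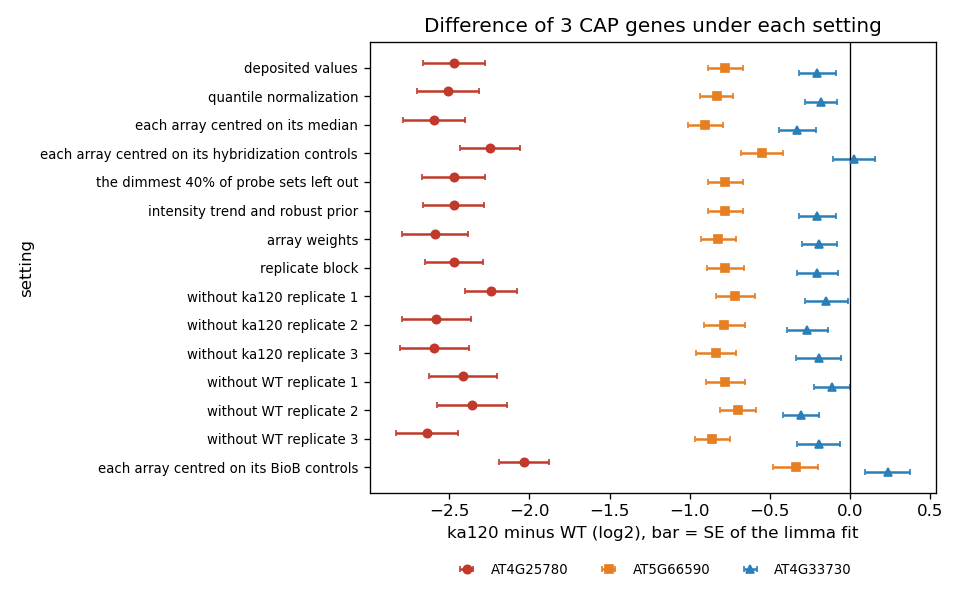
Difference of 3 CAP genes (horizontal axis, ka120 minus WT, log2, with the SE of the limma fit) with the deposited values and under each alternative setting (rows). AT4G25780 (circles) and AT5G66590 (squares) stayed negative throughout, while AT4G33730 (triangles, dropped where dim probe sets were left out) crossed 0 with both control-based centrings.

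PR1 is known as a late output of salicylic acid signalling, so measured genes of that pathway were set beside its relatives. For 4 of 29 listed genes the annotation used here names a single-gene probe set, and the other 25 are not analysed here. Of those measured, 4 of 4 rose in ka120, beside 19.4% of all probe sets, with a median log2 difference of 1.44 against -0.02 over all probe sets. WRKY53, a transcription factor of leaf senescence and defence, had 6.72, 6.95 and 6.94 in ka120 and 4.65, 4.81 and 4.36 in WT (log2 difference 2.26, SE 0.12, limma adjusted p = 2.73e-07). SAG101, a partner of the immune regulator EDS1, rose by 1.62 (limma adjusted p = 1.26e-06), and its WT level, at percentile 29.7, was not shown to exceed background. SARD4, an enzyme of pipecolic acid synthesis, rose by 1.27 (limma adjusted p = 1.18e-05). GRX480, a glutaredoxin that binds TGA transcription factors, rose as well, to a log2 level of 5.44 ± 0.27 in ka120, against 4.34 ± 0.19 in WT (SD, n = 3 arrays each, limma adjusted p = 0.000128). None of the 9 CAP members was called higher on the same arrays under the deposited scaling, beside 19.4% of all probe sets. The 7 dim members lay in the dimmest 40% of the array, where 5.62% of probe sets were called higher. By the mean over the 6 arrays none of the 4 salicylic acid genes lay there. SAG101, at percentile 29.7 in WT, was counted outside that part only through its ka120 level. The 2 counts are therefore not alike in signal level, and whether the members follow that pathway was not tested.

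A list of other secreted defence proteins and of proteases that release CAPE peptides had 3 of 13 genes measured, and neither protease was among them. Of the 3 genes 0 passed the limma threshold (1 at an unadjusted p of 0.05), beside 35.9% of all probe sets and 10.2% of the dimmest 40%. The largest difference was 0.25 for THI2.1, a thionin, with 3.61, 3.75 and 3.38 in ka120 and 3.34, 3.32 and 3.35 in WT (limma adjusted p = 0.0998). The defensins PDF1.1 and PDF1.2 gave -0.03 and 0.10. All 3 were dim as well, at or below percentile 33.6 of the array, and their median log2 difference was 0.10 against -0.02 over all probe sets.

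The profile of AT4G25780 over the 6 arrays was compared with that of every other named gene, as the Euclidean distance between profiles after each gene's own mean was subtracted. The 5 nearest were AT5G66740, AT4G02850, AT4G30660, AT2G29310 and AT5G02160, at distances between 0.70 and 0.82 on the log2 scale. AT5G66740 had 4.02, 3.93 and 4.14 in ka120 and 6.37, 6.59 and 6.47 in WT, a log2 difference of -2.45. The log2 differences of the other 4 lay between -2.43 (AT4G02850) and -2.06 (AT4G30660). AT4G30660 belongs to a family of small membrane proteins linked to low temperature and salt, and AT2G29310 to the short-chain dehydrogenases. Since all 5 were found through the difference between the genotypes, this is a description of 6 arrays and not evidence that the genes are linked. None of the 5 is a CAP gene.

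The labelled tissue was checked with listed cell type markers. Of 7 mesophyll markers 3 were measured, RCA, SBPASE and PRK, all at or above percentile 99.4 of the array, as leaf tissue gives. Of 7 root markers 2 were measured, EXPA7 and EXPA18, at percentiles 24.9 to 37.4 in ka120 and 32.9 to 38.2 in WT. They gave -0.01 and -0.31 on the log2 scale, and neither was past the threshold. The summed log2 level of the 3 mesophyll markers was 35.5 to 35.9 in ka120 and 36.5 to 36.8 in WT, with SBPASE and PRK lower in ka120 by the limma threshold (adjusted p = 0.000265 and 0.0313). SWEET11, a sucrose exporter of the phloem and the single measured member of 5 vascular markers, rose by 1.49 (limma adjusted p = 5.52e-07). The epidermal markers FAMA and SPCH, 2 of 5 listed, gave -0.04 and -0.22 without passing, and of the 4 flower and 3 seed markers 0 were measured. The part of these marker differences in the lower levels of AT4G25780 and AT5G66590 was not tested.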

How the data were processed

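RNA from 3 ka120 and 3 WT samples was labelled with biotin and hybridized to 1 array each. Judged by their range, the authors deposited 1 log2 level per probe set and array. For their making the submitters' processing notes name only the affy package; its version and the handling of background, normalization and probe set summary are not stated there. From 22810 probe sets, 64 array controls were removed before testing. Platform annotation supplied gene names, which were brought up to the TAIR10.1 gene table by gene identifier: 13513 probe sets had 1 gene (13436 matched), 503 several and 8730 none. Where a gene had several probe sets, the brightest was used, and no member had more than 1.

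Differences were fitted in R 4.3.3 by limma 3.58.1, with lmFit, eBayes and no filter. Adjustment was by Benjamini-Hochberg over 22746 probe sets at a threshold of 0.05. The rule for named genes covered every member, direct chromosome neighbours, the 5 profiles nearest to AT4G25780 and up to 3 called genes per list. GRX480, the defensins and the uncalled CAP loci were named in addition, after their values were seen. The members and lists were chosen with earlier results of these data known. Replicate numbers were not used as pairs in the main fit. Same-numbered arrays deviated with r of -0.01, -0.19 and 0.13, within the -0.28 to 0.26 of differently numbered arrays. A fit with the replicate number as a block was run as an alternative setting. The records call the replicates biological without naming separate cultures. The p-values therefore set each difference against the spread between these samples, and whether that spread covers separate cultures is not known.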

Additional observations from a re-analysis of the deposited data

How the results depend on the processing

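AT4G25780 gave log2 differences between -2.64 and -2.03 and AT5G66590 between -0.90 and -0.34 over 14 alternative settings, a description of the arrays on which they were listed. Centring on the BioB controls was chosen after seeing the data, and AT4G25780 passed the filter on dim probe sets only through its WT level. Between 6736 and 7878 probe sets passed when 1 array was left out, 7868 passed with the replicate block, and 2 of the 9 CAP members passed with each of these. The split of calls moved with the scaling: 54.0% were higher with the deposited values, 34.7% after median centring (6235 lower calls against 3760) and 80.3% after centring on the hybridization controls (1955 lower and 7971 higher). Of the other CAP loci, 1 of which passed, 0 passed with quantile normalization or with the replicate block, 3 on hybridization controls and between 0 and 1 with 1 array left out. After median centring and without WT replicate 1 the single call was AT4G07820, as lower (-0.30 and -0.29); AT2G19990 lost its call without ka120 replicate 1 or 3 and without WT replicate 1 or 3 (log2 difference between 0.24 and 0.34). None of them was left when the dimmest 40% of probe sets was removed. Of the secreted defence list 2 passed on hybridization controls, and 0 to 1 with 1 array left out (1 without ka120 replicate 3). The control-based centrings add an offset that moves all differences up, and median centring adds an offset that moves them down. For the other settings the cause of these changes was not tested. Centring on BioB called 17038 of 22746 probe sets, 5 members (3 of them higher), 9 other CAP loci and 3 of the secreted defence list. Negative differences became higher calls for AT4G31470 (0.39), AT3G19690 (0.39), AT1G01310 (0.36), AT2G19980 (0.41), AT4G33710 (0.33), AT5G02730 (0.30) and AT5G26130 (0.41). AT4G25790 (0.53), AT1G50050 (0.59), AT2G19970 (0.47) and AT3G09590 (0.57), positive but not called with the deposited values, also became higher calls. Averaging over several probe sets of 1 gene was not run, as no member has more than 1. Signal near background limits what can be said of the 7 dim members.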
